A study of Homo sapiens with 8 samples.

Results

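The microRNAs described here are encoded inside genes of lipid metabolism: miR-33a and miR-33b in the SREBF genes, and miR-103 and miR-107 in the PANK genes. They were taken by name, as every assay whose microRNA name begins with miR-33a or miR-33b or is miR-103 or miR-107, either strand. The rule found 5 of 754 assays: miR-33a, its passenger strand miR-33a#, miR-33b, miR-103 and miR-107. The names were chosen by the lower values of miR-33a# and miR-107 after TGF-β1 in these same samples, so the TGF-β1 changes of all 5 are described without a test.

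MicroRNAs were measured by TaqMan quantitative PCR on 2 cards of 377 assays each in A549, LC2/ad, PC3 and PC9, 4 established cell lines from human adenocarcinoma of the lung. The 4 control samples, 1 per line, had no treatment, and the 4 others, again 1 per line, were exposed for 72 h to 5 ng/ml of TGF-β1. The medium was RPMI with fetal bovine serum for all, no genotype or further agent is given in the labels, and the submitters did not authenticate the lines. PC9 is known for an activating EGFR mutation, and PC3 here is of lung, not the prostate line of that name. The groups follow the treatment field and the titles of the samples, since their source names word the exposure the other way round.

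Each precursor of this kind is cut from an intron of its host transcript and gives a guide strand, which is loaded onto Argonaute, and a passenger strand, which is mostly discarded. SREBF2 and SREBF1 encode the transcription factors that switch on cholesterol and fatty acid synthesis, and miR-33 represses the cholesterol exporter ABCA1 and enzymes of fatty acid oxidation. The PANK genes encode pantothenate kinases, which start the synthesis of coenzyme A. miR-103 and miR-107 repress caveolin-1 and DICER1, and miR-103 is widely used as a reference microRNA in PCR. The host transcripts were not measured.

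The mature sequences are shown because the assays separate strands and close relatives of 1 family. They are RefSeq's for GRCh38.p14, written 5′ to 3′, with the seed (bases 2 to 8) in capitals, and all 5 assays had a match by name. miR-103 is listed there as miR-103a-3p and miR-33a# as miR-33a-3p.
miR-33a: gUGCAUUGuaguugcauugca
miR-33b: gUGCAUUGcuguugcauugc
miR-33a#: cAAUGUUUccacagugcaucac
miR-103: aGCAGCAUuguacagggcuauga
miR-107: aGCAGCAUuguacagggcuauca
miR-33a and miR-33b share the seed UGCAUUG and differ at 2 of the 20 bases compared (U9C and A10U, counted from the 5′ end, the base of miR-33a first). miR-103 and miR-107 share the seed GCAGCAU and 22 of 23 bases, with G22C as the one substitution (the base of miR-103 first), so a reading of one could in part come from the other; cross-reaction of the assays was not tested. The passenger miR-33a# has another seed, AAUGUUU.

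miR-33a lies at chr22:41900949-41900969 (+ strand) and miR-33a# at chr22:41900989-41901010 (+), both within SREBF2. miR-33b lies at chr17:17813897-17813916 (- strand) within SREBF1. miR-107 lies at chr10:89592756-89592778 (-) within PANK1. miR-103 has 2 copies with the same mature sequence, at chr5:168560904-168560926 (-) within PANK3 and at chr20:3917541-3917563 (+) within PANK2, and its assay cannot tell them apart. The RefSeq gene table gives spans, so the intronic position is background here. The miR-33a hairpin, with both measured arms in capitals, is shown because its arms gave opposite detection.
MIR33A hairpin: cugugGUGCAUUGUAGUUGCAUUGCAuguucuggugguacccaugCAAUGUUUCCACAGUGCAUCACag

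A threshold cycle (Ct) is the PCR cycle at which an assay crosses its threshold, a step of 1 cycle down is a doubling, and 40 is listed where it was never crossed. A Ct of 35 or below counted as detected. By that limit the 8 samples detected between 225 and 281 assays, 372 were detected in at least 1 sample and 168 in all. The 4 U6 wells of a card and sample had an SD between 0.06 and 0.65 cycles (median 0.29), the only technical repeat on the cards. The epithelial miR-200c was detected in all 8 samples and 3 to 6 of the 6 epithelial markers in each, while liver miR-122 amplified in none. Of 4 markers of fibroblasts and smooth muscle, 0 to 3 were detected, and in PC3 their summed log2 level (3.02 in control and 3.11 after TGF-β1) exceeded that of the epithelial markers (2.28 and 1.91). The endothelial miR-126 was also detected in all 8 samples. Of 3 nerve markers, miR-9 was detected in all 8 samples, miR-124 in 1 and miR-219-5p in 0. At most 2 of 5 blood markers and 1 of 4 muscle markers were detected in any sample. A change within 1 line rests on 1 pair of samples and has no replicate error.

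miR-103 was detected in every sample. Its Ct was 27.86 in PC3 control and 27.62 after TGF-β1, 27.40 and 27.97 in LC2/ad, 28.29 and 28.02 in A549, and 29.19 and 29.55 in PC9. The 2 PC9 samples had the highest Ct, and control and treated samples overlapped.

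miR-107, which differs from miR-103 by 1 base, was detected in 4 of 8 samples, all near the limit. Its Ct was 36.17 and 40 in PC3, 33.56 and 35.71 in LC2/ad, 33.55 and 33.60 in A549, and 34.07 and 40 in PC9, control first. It was detected in 3 of 4 control samples and in 1 of 4 treated samples, that of A549.

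miR-33a#, the strand of the SREBF2 hairpin regarded as passenger, was detected in 7 of 8 samples. Its Ct was 30.35 and 32.19 in PC3, 31.57 and 32.69 in LC2/ad, 31.96 and 33.18 in A549, and 34.78 and 40 in PC9, control first. PC3 had the lowest Ct in each condition and PC9 the highest.

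The guide strands of the SREBF hairpins were not detected. miR-33b stayed at 40 in all 8 samples. miR-33a, the strand that represses ABCA1, stayed at 40 in 7 samples and reached 37.14 in PC3 after TGF-β1, above the limit.

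**Figure D1:**
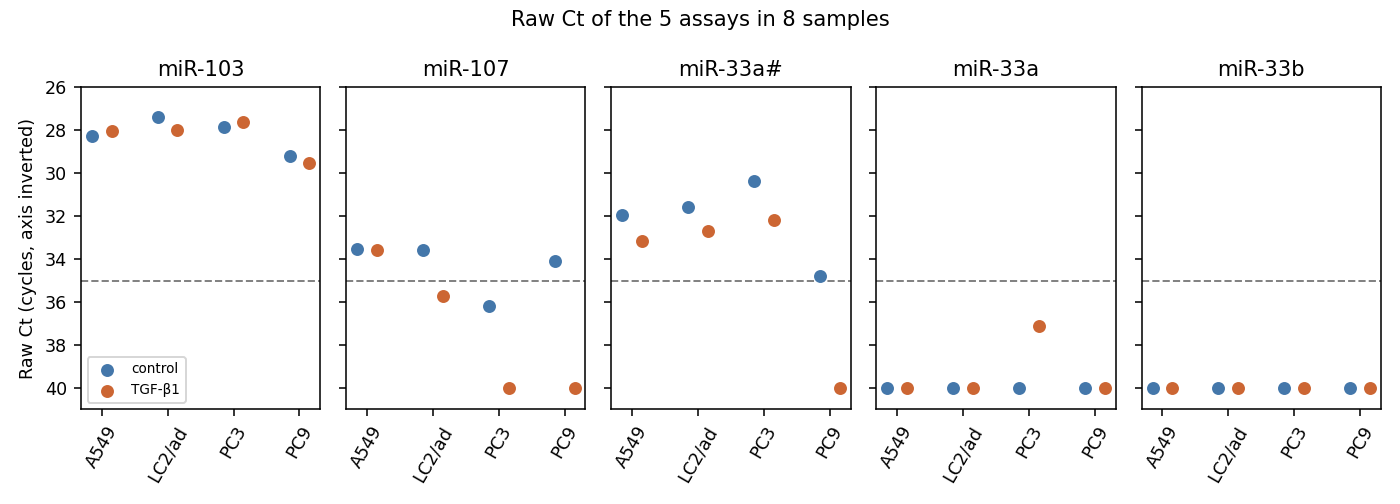
Raw Ct in cycles (inverted axis, lower Ct at the top) of the 5 assays in the control (blue) and TGF-β1 (orange) sample of each line; the dashed line is the detection limit of 35 and points at 40 did not amplify. miR-103 lies between 27.40 and 29.55. miR-33a# has a Ct under 35 except in treated PC9, and miR-107 has values on both sides of 35. The 2 guide strands of miR-33 lie above 35 throughout.

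The detection of miR-33a# without its guide was set beside the other pairs listed as guide and passenger on the cards. Of 108 guide and passenger pairs, 67 had the guide in more samples than the passenger and 10 (9.26%) the reverse. In 4 pairs the passenger was found in at least 1 sample and the guide in none. Among these pairs, miR-33a was the 1 in which the passenger was found in at least 7 samples and the guide in none. The 7 is the count of miR-33a# itself, so this describes the pair and is no test. Arms named -5p and -3p can differ as much: miR-501-5p was detected in 8 samples and miR-501-3p in 0. Assays differ in efficiency, so the Ct of one strand gives no level of it against the other.

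Levels between lines were compared over both samples of each line, with treatment as a term in the model. A level is the mean Ct of the assays detected in all samples of a card (117 on card A, which holds miR-33b, miR-103 and miR-107, and 51 on card B, which holds both miR-33a assays) minus the assay's Ct, in log2 units. Values under the highest limit of any sample were set to it, -5.85 on card A and -5.21 on card B. By this measure miR-33a# passed the test between lines (limma F test, adjusted p = 0.0232), where 191 of 318 assays (60.1%) passed. miR-103 and miR-107 did not pass, and miR-33a and miR-33b, never detected, were not in the test.

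In each sample the log2 level of miR-33a# was -1.85 in PC3 control and -3.63 after TGF-β1, -2.87 and -3.75 in LC2/ad, -2.69 and -4.33 in A549, and -4.99 and -5.21 in PC9, the last being the limit. The order of the line means was PC3 at -2.74 (SD 1.26, n = 2, control and treated), LC2/ad at -3.31 (SD 0.62), A549 at -3.51 (SD 1.16) and PC9 at -5.10 (SD 0.16). Both PC9 samples lay under all 6 others.

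PC9 lay under PC3 by a log2 difference of 2.36 (PC3 minus PC9, SE 0.43, limma adjusted p = 0.00902), a pair in which 45.9% of assays passed. The difference of LC2/ad from PC9 was 1.79 (limma adjusted p = 0.0255, 39.0% of assays) and that of A549 1.59 (limma adjusted p = 0.0355, 40.9%). In all 3 the treated PC9 sample was set to the limit, so the size of the difference depends on where the limit lies. The neighbours above PC9 did not differ beyond their spread: LC2/ad minus PC3 was -0.57 (95% interval -1.67 to 0.53, 43.4% of assays passed) and A549 minus LC2/ad -0.20 (-1.30 to 0.90, 0.943%), while A549 minus PC3 was -0.77 (-1.87 to 0.33, 47.8%). The F test did not pass without PC3 (adjusted p = 0.0654, limma), without PC9 (0.228) or with a Ct limit of 32 (0.567). The difference of A549 from PC9 did not pass with RNU48 as normalizer (1.15, adjusted p = 0.112, limma), with all control RNAs (1.34, 0.0652) or without PC3 (0.0516). With a Ct limit of 32 none of the 3 passed in limma: PC3 minus PC9 was 0.18 (adjusted p = 0.337), and LC2/ad and A549 minus PC9 were both 0 (adjusted p = 1).

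miR-103 varied little in level over the samples. Its log2 level was -0.43 and -0.19 in PC3, 0.08 and -0.09 in LC2/ad, -0.43 and -0.40 in A549, and -0.04 and -0.64 in PC9, control first. The SD over the 8 samples was 0.24, against a median of 0.88 for the 168 assays detected in all samples, and ranked 2 from the lowest. The rank was 2 with RNU48, 3 with all control RNAs, 8 with the median of microRNAs and 24 with U6 as normalizer, and miR-103 is itself 1 of the 117 assays in the card's mean.

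The order of its line means was LC2/ad at -0.01 (SD 0.12, n = 2), PC3 at -0.31 (SD 0.17), PC9 at -0.34 (SD 0.42) and A549 at -0.41 (SD 0.02). The F test did not pass (limma adjusted p = 0.523), and neither did any of the 6 pairs of lines. For the widest pair, A549 minus LC2/ad was -0.41 with a 95% interval from -1.06 to 0.25, so differences within those bounds could not be told from 0. With U6 as normalizer, LC2/ad lay above PC9 by 1.25 (limma adjusted p = 0.0402).

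miR-107 gave little to order by line. In 6 of 8 samples it was at or under the common limit, and only A549 control (-5.69) and PC9 control (-4.92) lay above it. The F test did not pass (limma adjusted p = 0.476). It did when each sample kept its own limit (adjusted p = 0.0151, limma), where PC3 minus PC9 was -2.07 (limma adjusted p = 0.00679). Samples without detection then take limits that follow their normalizer, -7.57 in both PC3 samples and -6.09 in treated PC9. That difference therefore comes in part from the normalizer and cannot be read as a difference in level.

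**Figure D2:**
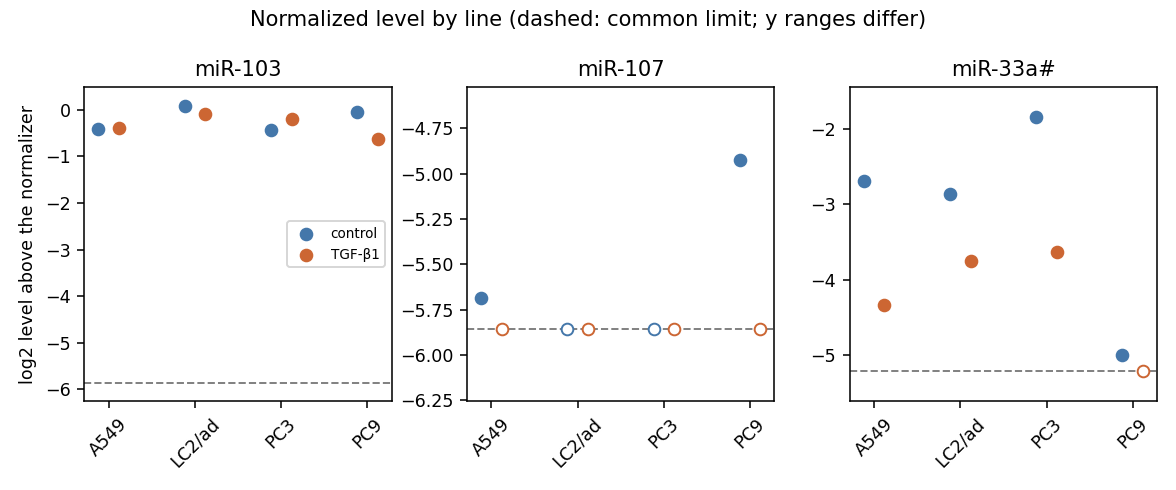
Log2 level above the card's normalizer of miR-103, miR-107 and miR-33a# in the control (blue) and TGF-β1 (orange) sample of each line, on y axes that differ; open circles are at the common limit (dashed line). miR-103 stays between -0.64 and 0.08, miR-107 is above the limit in 2 samples, and miR-33a# is lowest in PC9.

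The second comparison is that of the study, TGF-β1 against control. Over the lines, 0 of 250 assays (0%) passed an adjusted p of 0.05 in limma, and 30 had an unadjusted p under 0.05. Changes are differences of log2 levels, TGF-β1 minus control, with a Ct above 35 set to 35. Where the treated sample was not detected, the change is an upper bound, and the true value can lie anywhere below it.

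With the card's mean as normalizer, miR-33a# was lower after TGF-β1 in all 4 lines, where 29 of 204 assays with a value in every line (14.2%) were. The log2 change was -1.79 in PC3 (3.45-fold lower), -0.88 in LC2/ad (1.85-fold lower), -1.64 in A549 (3.13-fold lower) and -0.55 or less in PC9 (at least 1.46-fold lower). The mean was -1.22 (SD 0.60, n = 4 lines), or -1.44 without PC9, over the 3 lines where both samples were detected. With the PC9 bound in it, the mean over 4 lines is an upper bound, and its SD depends on the limit. The raw Ct moved the same way in each, by 1.84 cycles in PC3, 1.12 in LC2/ad and 1.22 in A549, while the card's normalizer moved by 0.05, 0.24 and -0.42.

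A decrease of at least 2-fold was reached by 16 of 293 assays in PC3 (5.46%), 40 of 303 in LC2/ad (13.2%), 31 of 275 in A549 (11.3%) and 26 of 252 in PC9 (10.3%). miR-33a# reached it in A549 and PC3. Among assays with a control Ct above 30 and at most 35, where miR-33a# lies, the shares were 11.9% in PC3, 18.7% in LC2/ad, 20.7% in A549 and 18.5% in PC9. No repeat on the cards measures the error of assays in that range. In PC9 the control itself stood at 34.78, and 35.7% of assays there with a control Ct above 33 were, like miR-33a#, lost after treatment. The PC9 bound turned to 0.05 (RNU48) and 0.04 (all control RNAs), and with U6 it was -0.01, close to 0. The median change of card B assays in PC9 was then 0.43, 0.42 and 0.37 in that order. Under these control RNA normalizers a decrease in PC9 is therefore not established. With a Ct limit of 32 the changes became upper bounds of -1.60 in PC3, -0.19 in LC2/ad and -0.46 in A549, with a mean of -0.75 and no value in PC9.

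For miR-107 the log2 change was -0.29 in A549, -1.05 or less in LC2/ad (at least 2.07-fold lower) and -1.16 or less in PC9 (at least 2.24-fold lower), with no value in PC3, where neither sample was detected. The 3 values average -0.83 (SD 0.47, n = 3 lines). Since those of LC2/ad and PC9 are bounds, this mean is an upper bound too, and the SD depends on the limit. Of 250 tested assays, 40 (16%) were lower in every line with a value. In A549 the change amounts to 0.05 cycles of raw Ct, with the card's normalizer moving by -0.24. Loss of detection from a control Ct above 33 was met by 55.6% of such assays in LC2/ad and 35.7% in PC9, the lines of these bounds. In A549, where miR-107 stayed detected, 35.6% of such assays were lost, and in PC3 43.1%. The PC9 bound was -0.26 with U6, -0.50 with all control RNAs and -0.57 with RNU48. Counting Ct values up to 38, the changes were -1.76 in LC2/ad and -4.16 or less in PC9. PC3, with a control Ct of 36.17, then also had an upper bound.

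miR-103 had values on both sides of 0. Its log2 change was 0.24 in PC3, -0.17 in LC2/ad, 0.02 in A549 and -0.59 in PC9, a mean of -0.13 (SD 0.35, n = 4 lines). None of the 4 reached 2-fold, which 1 of 178 assays with both Ct values at most 32 did in PC3 (0.562%), 31 of 167 in LC2/ad (18.6%), 12 of 161 in A549 (7.45%) and 9 of 135 in PC9 (6.67%). The PC9 value was 0.31 with U6 and 0.07 with all control RNAs, the LC2/ad value 0.10 with the median of microRNAs, and the mean was 0.13 with U6 and 0.03 without PC9. These normalizers moved the other assays too. The median change of card A assays in PC9 was 0.86 with U6 and 0.62 with all control RNAs. In LC2/ad it was 0.27 with the median of microRNAs. miR-103 lay under the median in each of these cases.

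**Figure D3:**
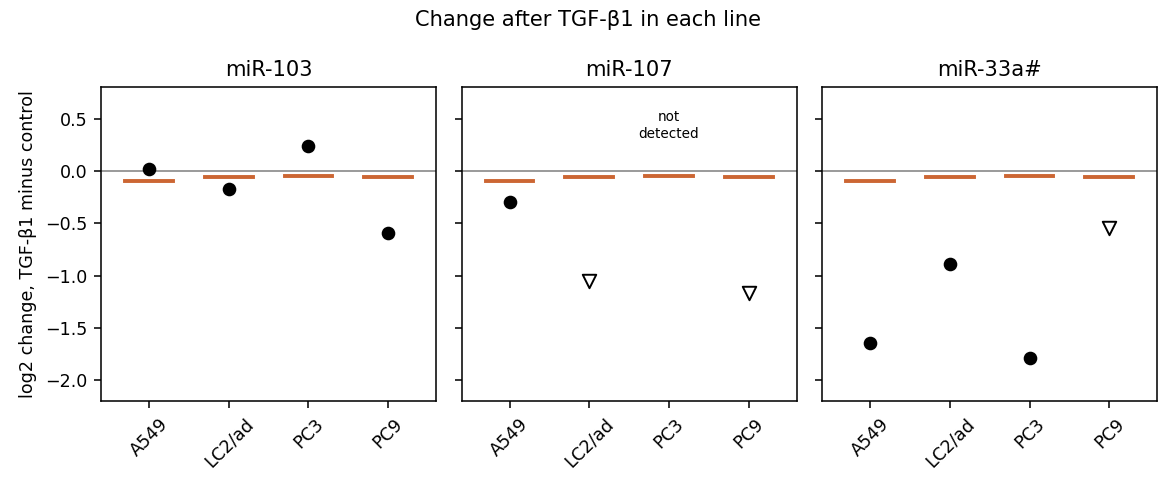
Log2 change after TGF-β1 (TGF-β1 minus control) of 3 assays in each line; filled circles were detected in both samples, open triangles are upper bounds and orange bars are the median of all assays of that line. miR-33a# lies under the bar in every line, from -0.55 to -1.79, and miR-103 on both sides.

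**Figure D4:**
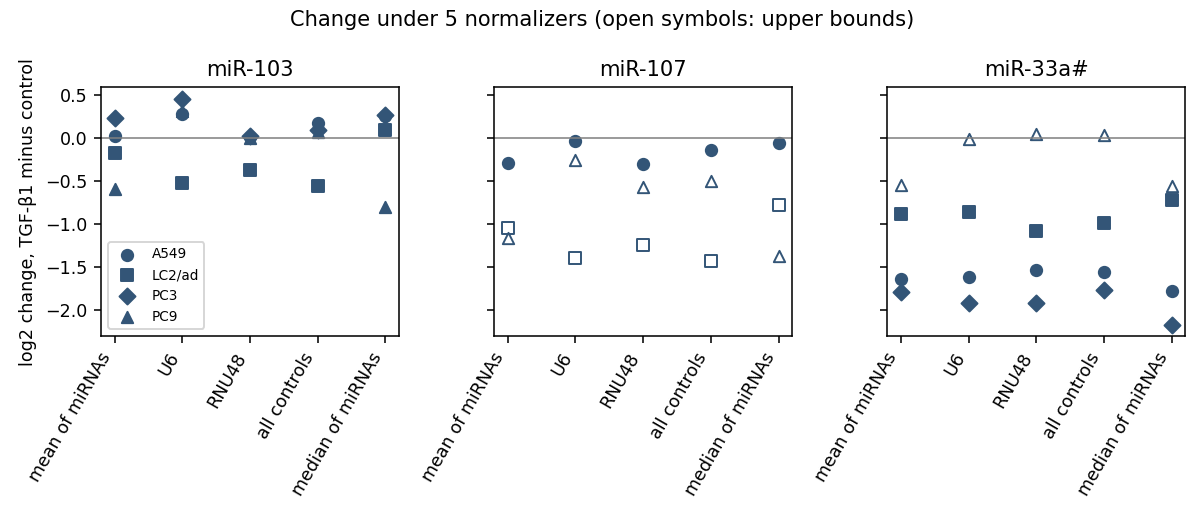
The same log2 changes under 5 normalizers (the mean or median of microRNAs on the card, U6, RNU48, all control RNAs), 1 symbol per line, open where the value is an upper bound. miR-33a# stays under -0.70 in A549, LC2/ad and PC3 with each, while its PC9 bound and the PC9 value of miR-103 cross 0.

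Because both lie on card A, miR-107 and miR-103 can be set against each other within a sample with no normalizer. The Ct of miR-107 minus that of miR-103 was 4.88 in PC9 control, 5.26 in A549 control, 6.16 in LC2/ad control and at least 7.14 in PC3 control. After TGF-β1 it was 5.58 in A549, at least 5.45 in PC9, at least 7.03 in LC2/ad and at least 7.38 in PC3. The distance was thus not constant across the control samples, and in the 3 lines with a detected control it was wider after TGF-β1. miR-107 was named for its lower values after TGF-β1, so this direction is no separate result. In A549, where both samples were detected, the Ct of miR-107 moved by 0.05 cycles and that of miR-103 by -0.26. Assays differ in efficiency, so the distance is not a ratio of the levels.

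**Figure D5:**
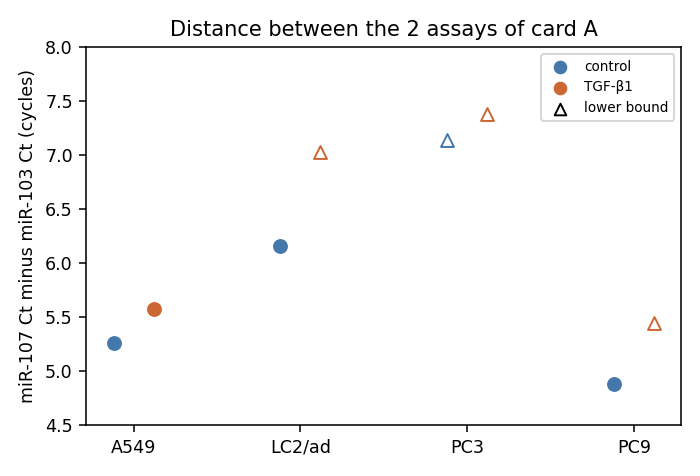
Ct of miR-107 minus Ct of miR-103 in cycles, in the control (blue) and TGF-β1 (orange) sample of each line; open triangles are lower bounds, where miR-107 was not detected and its Ct was set to 35. Controls run from 4.88 in PC9 to at least 7.14 in PC3.

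The authors' deposited table of folds, which keeps a Ct of 40 as a value and scales to U6, differs most from the values here where a sample did not amplify. In the authors' deposited table the fold of miR-107 is 0.0820 in PC3, 0.233 in LC2/ad, 0.978 in A549 and 0.0261 in PC9, and those of PC3 and PC9 rest on samples that did not amplify. The authors' deposited table lists miR-33a# at 0.264, 0.552, 0.326 and 0.0310 in the same order, the PC9 fold again against a Ct of 40. In the authors' deposited table miR-33a has 6.86 in PC3, from a Ct of 40 to 37.14. The authors' deposited table also gives miR-33b, which never amplified, folds of 1.17, 1.04, 1.01 and 1.59, which are the U6 scaling alone. miR-103 has 1.38, 0.698, 1.22 and 1.24 in the authors' deposited table, so its PC9 fold is above 1 where the log2 change here is negative.

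The family of miR-15 and miR-16, regulators of the cell cycle, holds the letters AGCAGCA at bases 2 to 8 in 6 of the 8 members listed, where miR-103 and miR-107 hold them at bases 1 to 7. RefSeq lists these letters at base 1 or 2 in 9 of 2370 mature human microRNAs (0.380%) and anywhere in 11 (0.464%), read on the microRNA strand only; they overlap the seeds of both groups. The 4 members with the lowest mean Ct are shown, seed in capitals, to set beside miR-107 above.
miR-16: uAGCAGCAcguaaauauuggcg
miR-15b: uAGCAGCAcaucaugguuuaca
miR-195: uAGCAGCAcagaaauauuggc
miR-15a: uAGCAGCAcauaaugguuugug

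Of the 8 family assays 7 were detected in at least 1 sample and 5 were tested over the lines, with 0 past the adjusted threshold in either direction (limma). The median of their mean log2 changes was -0.06, against -0.08 for all 250. miR-16, with the lowest Ct, had -0.24 in PC3, 0.13 in LC2/ad, -0.09 in A549 and -0.04 in PC9, and miR-15b stayed between -0.21 and 0.10. miR-195 lay between -0.37 and 0.31. miR-15a, with the highest Ct of the 4, had -0.59 in PC3, 0.88 in LC2/ad, 2.35 in A549 and 2.72 in PC9. In the 3 lines where miR-107 has a value, the signs of miR-15a were opposite, but this did not hold for the family. miR-503, detected in only 3 samples, had -1.34 in LC2/ad, -1.08 in A549 and -0.05 in PC9. These were negative like those of miR-107, though small in PC9. miR-424, also detected in 3 samples, had 1.98 in LC2/ad and -2.40 in A549.

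A list of 15 further microRNAs linked to cholesterol and lipid genes, on 16 assays, stands for the pathway. In it 12 assays were detected in at least 1 sample, 11 were tested over the lines and 0 passed in either direction (limma), with a median of 0.13. At least 2-fold higher were 1 of 11 in PC3, 2 of 11 in LC2/ad, 2 of 12 in A549 and 0 of 11 in PC9, where the shares of all assays were 5.12%, 16.8%, 10.2% and 11.1%. At least 2-fold lower were 1, 0, 0 and 2, against the shares of lower assays given above. The list's median was -0.00 in PC3, 0.24 in LC2/ad, -0.23 in A549 and -0.41 in PC9, against -0.05, -0.05, -0.10 and -0.06 for all assays.

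miR-27a, a repressor of adipocyte differentiation, had log2 changes of 0.17 in PC3, 1.47 in LC2/ad, 1.28 in A549 and 0.71 in PC9. Its relative miR-27b had 1.44, 0.24, 0.58 and -0.75 in the same order. miR-30c, which represses the lipid transfer protein MTTP, had -0.05, 0.11, -0.61 and -0.51. miR-378, from an intron of PPARGC1B, had 0.02, 0.20, -0.45 and -0.74 by the assay with the lower Ct. miR-26a and miR-106b stayed between -0.18 and 0.43. miR-122, the liver microRNA that sustains cholesterol synthesis, miR-370 and miR-144 did not amplify in any sample, and miR-758, a repressor of ABCA1, stayed above the limit.

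Finally, the assays most like each member in level over the 8 samples were taken from 254 others detected in at least 4 samples. The points share lines, cards and normalizers, so the correlations describe these samples only. For miR-33a# they were 1 of the miR-629 assays (Pearson r = 0.86, n = 8), miR-185 (r = 0.85), which represses SREBF2, and miR-340 (r = 0.83). For miR-107, with 6 of 8 values at the limit, they were miR-15b# (r = 0.96), miR-584 (r = 0.88) and miR-636 (r = 0.80). For miR-103, whose range is only 0.72, they were miR-449b (r = 0.68), miR-339-5p (r = 0.61) and miR-324-3p (r = 0.59). miR-103 and miR-107 were not among each other's 3 most alike assays.

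In LC2/ad and PC9, where miR-107 has only upper bounds, more markers of fibroblasts and smooth muscle were detected after TGF-β1. Their number detected went from 1 to 3 of 4 in LC2/ad and from 0 to 2 in PC9. Their summed log2 level went from -6.26 to -2.63 in LC2/ad and was -3.13 in treated PC9. In PC3 2 of 4 were detected in both samples, at 3.02 and 3.11, while the change of miR-33a# there was -1.79. In A549 none was detected in either sample. The summed log2 level of the epithelial markers went from -2.72 to -1.90 in LC2/ad and from -1.58 to -0.71 in A549. It went from 7.10 to 6.92 in PC9 and from 2.28 to 1.91 in PC3. The part of either marker list in the values of miR-107 and miR-33a# was not tested. In bulk RNA, fewer cells that hold a microRNA and less of it per cell cannot be told apart.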

How the data were processed

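The members and lists were chosen with earlier results of these data known. Per the labels' protocols, the authors extracted total RNA with TRIzol, reverse transcribed it with TaqMan microRNA kits and ran 40 PCR cycles; of thresholds and baselines the sources say nothing. The deposited Ct values are raw and count as a score, with no normalization. The authors' deposited ratio is 2 to the power of minus the Ct difference, set to 1 in A549 control per the file headers, and the deposited folds are ratios of treated to control.

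From the raw Ct, detection (35 or below), normalization to the card's mean and within-line differences were computed. limma 3.58.1 in R 4.3.3 tested within-line pairs for the assays that had 3 or 4 of them, and levels between lines in a model of line and treatment, both two-sided with Benjamini-Hochberg adjustment over all assays at 0.05. The pairing is the cell line in the labels. With nothing in the labels on separate cultures within a line, p-values measure the spread over these samples. The scripts were tested on simulated data. Alternatives changed the normalizer, the Ct limits, the filters and the block, and left out each line. Named beside the members were the 3 most alike assays, and, by lowest mean Ct, 4 of the miR-15 family and 6 of the lipid list.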

Additional observations from a re-analysis of the deposited data

Results flagged for a closer look

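The log2 change of miR-103 after TGF-β1 had opposite signs in PC3 (0.24) and PC9 (-0.59), 0.83 apart. Each line has 1 pair of samples and the difference was not tested. The PC9 value was 0.31 with U6 as normalizer, where the median change of card A assays in PC9 was 0.86.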

How the results depend on the processing

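Over the lines, the count of assays past the threshold was 2 with U6 as normalizer and 0 under the other settings run, among them the fit with no replicate block. The mean change of miR-103 was 0.13 with U6 and -0.25 to 0.030 leaving out each line. Its value in PC9 was 0.31 with U6 and 0.074 with all control RNAs, and in LC2/ad 0.10 with the median normalizer. The PC9 bound of miR-33a# was 0.05 with RNU48, 0.043 with all control RNAs and -0.013 with U6. The median change of all assays in PC9 moved as well, to 0.535 with RNU48, 0.574 with all control RNAs and 0.73 with U6. In LC2/ad it was 0.20 with the median normalizer. With a Ct limit of 38 the means were -2.01 for miR-107 and -1.97 for miR-33a#. The PC9 bounds of both then lie deeper. For miR-107 the set of lines also changes, since PC3, with a control Ct of 36.17, adds an upper bound. Its LC2/ad change becomes a measured value at that limit. With a limit of 32 the mean of miR-33a# was -0.75. The limma adjusted p between lines for miR-33a# was 0.567 with a Ct limit of 32, and 0.0207 to 0.228 leaving out each line (0.0654 without PC3). For miR-107 the limma adjusted p was 0.0151 with each sample's own limit, a setting in which limits differ with the normalizer. The count of assays differing between lines was 98 to 193 leaving out each line. Assays changed 2-fold in PC3 were 3, 2 and 2 by U6, RNU48 and all control RNAs, and in PC9 45, 22 and 26. With the limit at a Ct of 35 for both samples, they were 20 in PC3, 63 in LC2/ad, 36 in A549 and 32 in PC9. The Ct limits were not run for the 2-fold counts, which have a Ct limit of their own, and miR-107 has no value at a limit of 32. Where nothing else is named, the cause was not tested. No repeat on the cards measures the error of assays at a Ct near the limit.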

Other observations

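miR-185, singled out here with its values known, a repressor of SREBF2 with a mean Ct of 30.6, had log2 changes after TGF-β1 of -0.34 in PC3, -0.65 in LC2/ad, -0.37 in A549 and -0.41 in PC9. The PC9 value was 0.49, 0.18 and 0.25 by U6, RNU48 and all control RNAs, while the other 3 stayed negative under each normalizer. The median change of card A assays in PC9 was then 0.86, 0.55 and 0.62.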
